A study of Canis lupus familiaris with 7 samples.

Results

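Serine synthesis and amino acid transport were examined through 10 genes chosen by name, namely *PHGDH*, *PSAT1*, *PSPH*, *SHMT2*, *MTHFD2*, *ASNS*, *SLC7A11*, *SLC7A5*, *SLC3A2* and *SLC1A5*. Of these, 9 had a row among the 24580 genes of the expression table, and *PHGDH* was not analysed here. A further gene, *MTHFD2*, was listed at 0 in all 7 samples, which left 8 genes with a value. The samples were dog tissue, 4 specimens of grossly non-malignant bone taken beside an osteosarcoma (OSA) (N1, N3, N8, N9) and 3 OSA tumors (T1, T3, T10), obtained at amputation or after euthanasia. The sample labels give tissue alone, so treatment, breed, sex and age were not compared. Expression is in FPKM, fragments scaled to transcript length and to the number of mapped fragments, so levels can be set side by side between genes. Summed over all genes, FPKM ran from 539648 (N1) to 1752340 (N8), and how libraries were normalized is not given.

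Cells make serine from a glycolytic intermediate in consecutive steps, with PHGDH first, the aminotransferase PSAT1 second and the phosphatase PSPH last. The mitochondrial enzyme SHMT2 then splits serine into glycine and a one-carbon unit carried by folate, which MTHFD2 oxidises for use in nucleotide synthesis, and SHMT1 and MTHFD1 run the matching steps in the cytosol. ASNS makes asparagine from aspartate and glutamine. Amino acids enter through SLC1A5, a glutamine and neutral amino acid exchanger, through SLC7A5 (LAT1), which carries large neutral amino acids, and through SLC7A11 (xCT), which brings in cystine for glutathione. SLC7A5 and SLC7A11 are light chains that reach the cell surface only when joined to the heavy chain SLC3A2 (4F2hc). Many of these genes are induced by the transcription factor ATF4 when amino acids run short.

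In OSA tumor, 2 of the 7 tested genes were higher, the mitochondrial *SHMT2* and the serine synthesis enzyme *PSAT1*, each by about 1.7 on the log2 scale, and 0 were lower. The other 5, the transporters among them, did not pass the test, and *SLC3A2* had a negative log2 fold change while *SLC7A5* had a positive one. A gene counted as higher or lower when log2(FPKM + 1) differed by 1 or more between the group means and limma gave an unadjusted p under 0.05, limits taken from the study's methods. Of all 13507 tested genes, 6.86% passed, 3.28% as higher and 3.58% as lower, and a Benjamini-Hochberg adjusted p under 0.05 was reached by 0 of them, although 927 had an unadjusted p under 0.05. The median log2 fold change was 1.00 over the 7 tested genes and -0.02 over all tested genes. The median of the 7 was 0.17 without N9, 1.56 without N1, and 0.055 with the sample number as a fixed block over N1, T1, N3 and T3. Of the 7, 5 had a positive log2 fold change, beside 48.6% of all tested genes. *SLC7A11*, with a mean of 0.758 FPKM over the samples, fell under the filter of 1 FPKM and was not tested.

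The non-tumor samples differed widely in the tissue they held. Summed FPKM of 9 skeletal muscle markers (of 10 listed, with *CKM* listed at 0 for N9) was 77.3 for N1, 1257 for N3, 85711 for N8 and 53813 for N9, against 5.74 to 14.5 in OSA tumor. For 9 of 10 erythroid markers it was 7.17 for N1, 3093 for N3, 4556 for N8 and 201 for N9, against 3.67 to 77.6 in tumor. Osteoblast markers, 9 of 10 found, summed to 188 to 16048 in non-tumor samples, highest in N1 and lowest in N8, and to 2217 to 12709 in tumor. *COL1A1* was listed at 0 for T1, and a 0 in this table can be a failed estimate. Cell cycle markers, 9 of 12 found and all above 0, summed to 29.99 for N9 and to 186 to 477 in the other 6 samples. N9 therefore stood apart in cell cycle genes. N1 lay within the tumor range in its erythroid level and in the sums of the other marker lists, except skeletal muscle and osteoblast. In those it lay above the tumors. Granulocyte markers, for example, summed to 409 FPKM in N1 and 38820 in N3, against 58.0 to 1466 in tumor. In bulk tissue, fewer cells of a type cannot be told apart from less RNA per cell, and the part of these cell types in the results was not tested. How many fragments stand behind an FPKM, read from the steps between the lowest values, was 0.545 (N8) to 1.44 (T10) times that in N1. The text of the labels does not say whether samples with a shared number come from 1 dog, so p-values describe the spread between these samples.

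**Figure D1:**
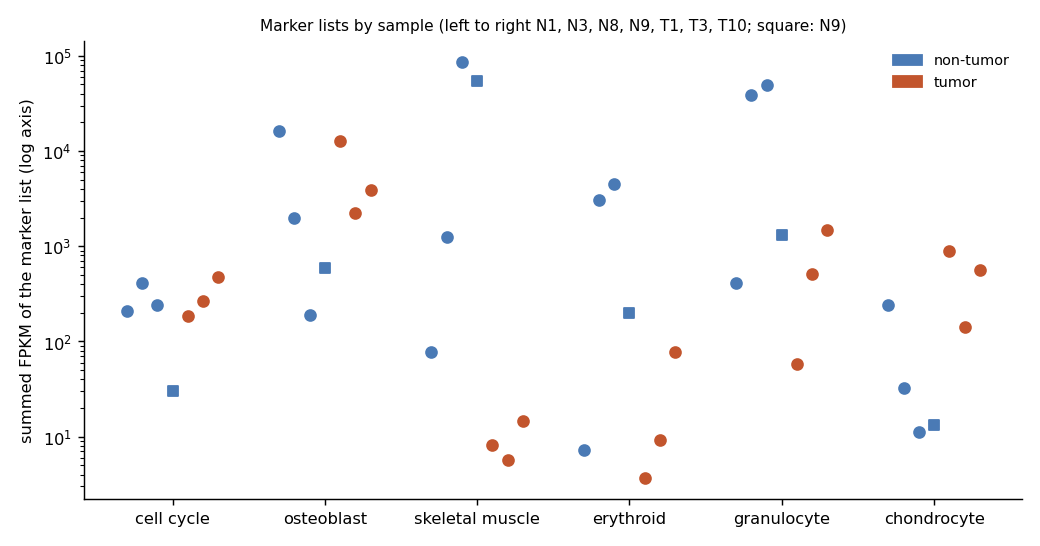
Summed FPKM of 6 marker lists in each sample on a log axis, with 1 point per sample in the order N1, N3, N8, N9, T1, T3, T10 and N9 as a square. N9 is the lowest sample for cell cycle markers at 29.99 FPKM, and skeletal muscle markers reach 85711 FPKM for N8 but at most 14.5 FPKM in tumor.

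Of the 7 tested genes, *SHMT2* (ENSCAFG00000000195) had the smallest p. Its FPKM were 35.03 for N1, 21.1 for N3, 18.3 for N8 and 5.88 for N9, against 41.4 for T1, 104 for T3 and 42.3 for T10. All tumors lay above all non-tumor samples, although T1 exceeded N1 by little, and T3 alone held 55.3% of the tumor sum. The non-tumor mean was 20.1 ± 12.0 FPKM (SD, n = 4), and the OSA tumor mean was 62.4 ± 35.6 FPKM (SD, n = 3). Limma gave a log2 fold change of 1.68 (95% interval 0.23 to 3.12, unadjusted p = 0.0273, adjusted p = 0.693). The exact two-sided permutation test gave p = 0.0571, the smallest that this design of 4 and 3 samples allows. Groups did not overlap in 1 of the 7 tested genes, *SHMT2* itself, and in 5.85% of all tested genes, with tumor higher in 3.04%. The call was lost without N9 (1.21, unadjusted p = 0.0594) and without T3 (1.25, unadjusted p = 0.114). N1 with T1 and N3 with T3 share a number, and the study calls its non-tumor tissue matched, but the labels do not say that a number marks a dog. With the number as a random block the log2 fold change was 1.52 by limma (unadjusted p = 0.0218), and as a fixed block over those 4 samples it was 1.24 and did not pass (unadjusted p = 0.116). The interval the authors' table gives for *SHMT2*, chromosome 10 from 1357229 to 1463472 in CanFam3.1, is shared by 4 listed genes (*NDUFA4L2*, *R3HDM2* and *STAC3* are the others), so overlapping reads could have been divided between them.

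*PSAT1* (ENSCAFG00000001570, chromosome 1 from 80377576 to 80408331) was at 28.3 FPKM for N1, 14.9 for N3, 8.51 for N8 and 2.51 for N9. It was at 18.0 FPKM for T1, 56.6 for T3 and 41.8 for T10. T3 and T10 stood above all non-tumor samples, but N1 exceeded T1, so the groups overlapped. *PSAT1* passed with a log2 fold change of 1.69 (95% interval 0.02 to 3.36, unadjusted p = 0.0479 by limma, adjusted p = 0.693), with an exact permutation p of 0.114. Its interval reached almost to 0, and the call held in 2 of the 7 fits that each left out 1 sample, those without N1 and without T1. The log2 fold change was 1.14 without N9 and 2.16 without N1. It did not pass with the sample number as a block either, at 1.32 with the random block (unadjusted p = 0.0756 by limma) and 0.62 with the fixed block (unadjusted p = 0.422).

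The last enzyme of the serine pathway, *PSPH* (ENSCAFG00000010123, chromosome 6 from 493517 to 499096), had a mean of 50.4 ± 20.4 FPKM (SD, n = 4) in non-tumor tissue and 46.3 ± 26.1 FPKM (SD, n = 3) in OSA tumor. Non-tumor values were 34.98 FPKM for N1, 31.7 for N3, 61.2 for N8 and 73.6 for N9, and tumor values were 24.2 for T1, 39.6 for T3 and 75.1 for T10. The highest and the lowest sample were both tumors. The log2 fold change was -0.18 (95% interval -1.42 to 1.06, unadjusted p = 0.752 by limma), an interval that still holds a 2-fold change either way. Its sign turned without N9 (0.029), without T1 (0.20) and with FPKM rescaled to the same sum (0.019), and it was -0.60 without T10. N9, the lowest sample for *PSAT1*, was the highest non-tumor sample for *PSPH*. The FPKM ratio of *PSAT1* to *PSPH* was 0.810 for N1, 0.469 for N3, 0.139 for N8 and 0.0341 for N9, against 0.745 for T1, 1.43 for T3 and 0.557 for T10. RNA levels for enzymes of consecutive steps were thus far from a fixed ratio in these tissues.

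**Figure D2:**
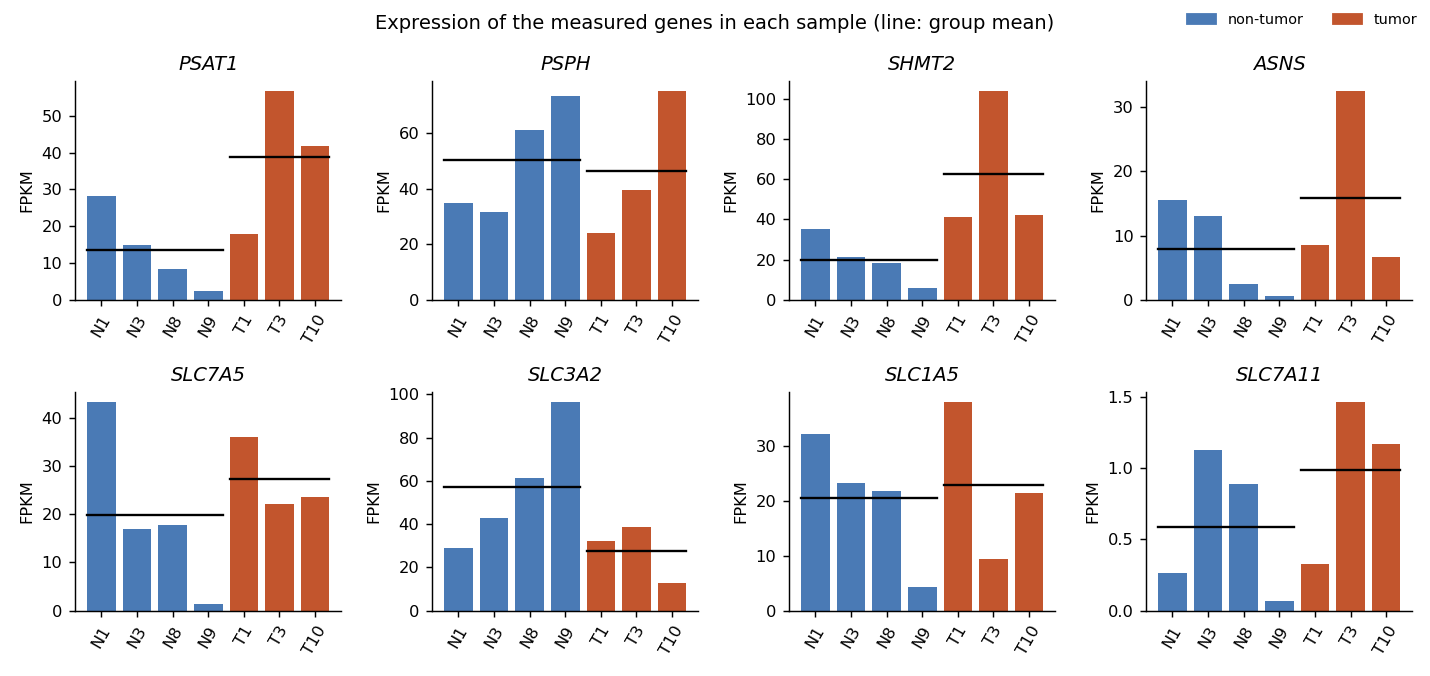
FPKM of the 8 genes with a value, 1 panel per gene and 1 bar per sample, with a line at the mean of the 4 non-tumor and of the 3 tumor samples. *SHMT2* is the gene whose tumor bars all exceed the non-tumor bars, and N9 is the lowest bar in 6 of the 8 panels but the highest for *SLC3A2*.

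*ASNS* (ENSCAFG00000002222, chromosome 14 from 22715169 to 22734459) did not pass the test. It was at 15.5 FPKM for N1, 13.0 for N3, 2.40 for N8 and 0.566 for N9, and at 8.49 for T1, 32.4 for T3 and 6.74 for T10. T3 made up 68.0% of the tumor sum, while T1 and T10 lay below N1 and N3. The log2 fold change was 1.19 (95% interval -0.86 to 3.23, unadjusted p = 0.222 by limma; exact permutation p = 0.343), and it was 0.53 without T3 and 0.55 without N9.

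The row named *MTHFD2* (ENSCAFG00000030281) covers 878 bases of chromosome 29, from 433293 to 434170. RefSeq places a gene of this symbol on chromosome 17 in the UU_Cfam_GSD_1.0 assembly. The 0 FPKM of that row in all 7 samples was therefore not read as a level of the mitochondrial folate enzyme.

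Among the transporters, *SLC7A5* (ENSCAFG00000019901, chromosome 5 from 65312985 to 65346118) was at 43.2 FPKM for N1, 16.9 for N3, 17.6 for N8 and 1.43 for N9. In OSA tumor it was at 36.1 FPKM for T1, 22.1 for T3 and 23.5 for T10. The 3 tumors lay within a factor of 1.63 of each other, whereas non-tumor samples spanned a factor of 30.1. The log2 fold change of 1.00 (95% interval -0.96 to 2.96, unadjusted p = 0.279 by limma) was 0.17 without N9 and 1.56 without N1. The highest sample was non-tumor.

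Its partner chain *SLC3A2* (ENSCAFG00000015495, chromosome 18 from 53810446 to 53818867) took another order. Its FPKM were 29.1 for N1, 42.6 for N3, 61.3 for N8 and 96.3 for N9, against 32.3 for T1, 38.4 for T3 and 12.6 for T10. N9, the lowest sample for *SLC7A5*, was the highest for *SLC3A2*, and N1, the highest for *SLC7A5*, was the lowest non-tumor sample for *SLC3A2*. The log2 fold change was -1.02 (95% interval -2.34 to 0.29, unadjusted p = 0.112 by limma; exact permutation p = 0.171), and it was -0.55 without T10, so a lower level in OSA tumor was not established. The FPKM ratio of *SLC7A5* to *SLC3A2* was 1.48 for N1, 0.398 for N3, 0.288 for N8 and 0.0149 for N9, and 1.12 for T1, 0.574 for T3 and 1.87 for T10. By FPKM the light chain was thus the higher of the pair in N1, T1 and T10. The heavy chain was higher in N3, N8, N9 and T3, by most in N9.

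*SLC1A5* (ENSCAFG00000004201, chromosome 1 from 109150286 to 109160789) was at 32.3 FPKM for N1, 23.3 for N3, 21.9 for N8 and 4.38 for N9. Tumor values were 38.1 FPKM for T1, 9.36 for T3 and 21.4 for T10. The ranges nearly coincided, and T3, the highest sample for *SHMT2*, *PSAT1* and *ASNS*, was the lowest tumor here. The log2 fold change was 0.23 (95% interval -1.40 to 1.86, unadjusted p = 0.758 by limma), and it changed sign without N9 (-0.34) and without T1 (-0.22).

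The cystine transporter *SLC7A11* (ENSCAFG00000003749, chromosome 19 from 4289915 to 4371635) was the lowest of the 8 genes. It was at 0.264 FPKM for N1, 1.12 for N3, 0.891 for N8 and 0.0682 for N9, and at 0.328 for T1, 1.46 for T3 and 1.17 for T10. N1, N9 and T1 were low and the other 4 samples higher, so low and high values stood in both groups. The difference of the group means was 0.33 in log2(FPKM + 1), where a pseudocount of 1 compresses changes at such levels, with an exact permutation p of 0.286. With a pseudocount of 0.1 it was 0.86. Fragment counts were not analysed, so the counting error of these low values is unknown.

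By mean FPKM in OSA tumor the order was *SHMT2* (62.4), *PSPH* (46.3), *PSAT1* (38.8), *SLC3A2* (27.8), *SLC7A5* (27.2), *SLC1A5* (22.9), *ASNS* (15.9) and *SLC7A11* (0.987). In non-tumor tissue it was *SLC3A2* (57.3), *PSPH* (50.4), *SLC1A5* (20.5), *SHMT2* (20.1), *SLC7A5* (19.8), *PSAT1* (13.5), *ASNS* (7.86) and *SLC7A11* (0.587). Within each group the sample ranges of neighbours overlapped, except those of *ASNS* and *SLC7A11* in tumor. N9 was the lowest of all 7 samples in 6 of the 8 genes (*PSAT1*, *SHMT2*, *ASNS*, *SLC7A11*, *SLC7A5* and *SLC1A5*), where it was lowest in 16.1% of all tested genes. In the same sample the cell cycle markers were lowest and skeletal muscle markers summed to 53813 FPKM. N8, at 85711 FPKM of muscle markers, was the next lowest non-tumor sample for *PSAT1*, *SHMT2*, *ASNS* and *SLC1A5*, and the part of tissue content in these levels was not tested. As fold range of FPKM + 1 over the 4 non-tumor samples, *SLC7A5* reached 18.2, *ASNS* 10.5 and *PSAT1* 8.35, against a median of 3.03 over all tested genes. *PSPH*, at 2.28, was the only tested gene of the 7 below that median.

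**Figure D3:**
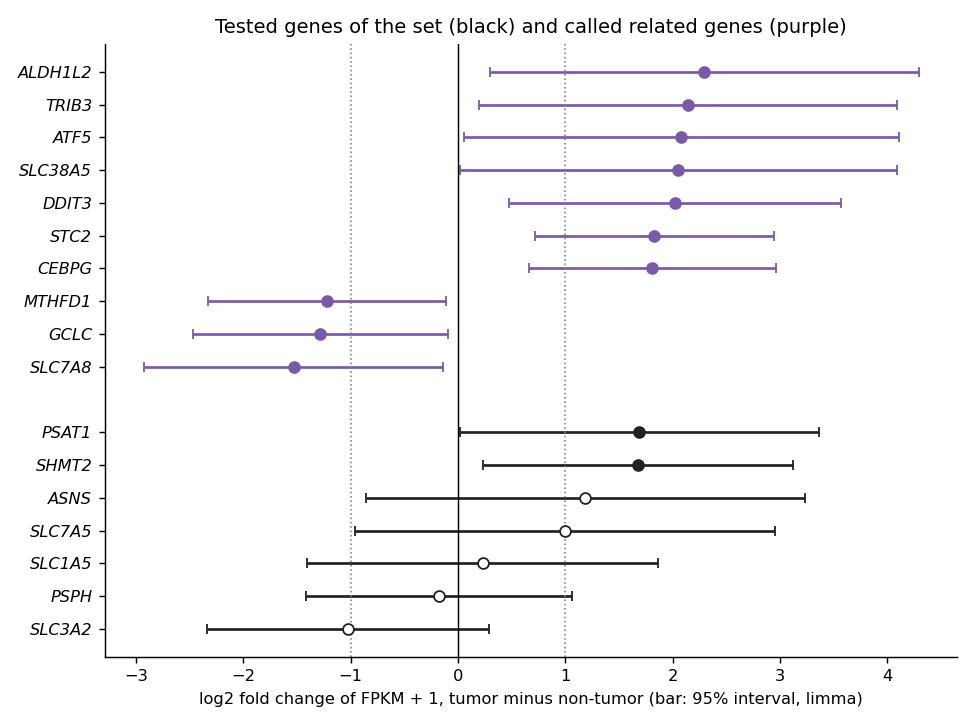
Log2 fold change of FPKM + 1, tumor minus non-tumor, with 95% intervals by limma for the 7 tested genes (black) and the 10 related genes that passed (purple). Filled points passed the limits, dotted lines mark an absolute log2 fold change of 1, and the intervals of *ASNS*, *SLC7A5*, *SLC1A5*, *PSPH* and *SLC3A2* include 0.

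Other genes of the serine, glycine and one-carbon pathways were read from a list of 24 symbols, of which 19 had a row and 17 were tested. By limma 1 was higher and 1 lower, with a median log2 fold change of -0.24. *ALDH1L2*, a mitochondrial enzyme that releases the folate-bound one-carbon unit, was higher at 2.30 (unadjusted p = 0.0284). Its FPKM were 21.7 for N1, 3.001 for N3, 0.974 for N8 and 3.43 for N9, against 22.2 for T1, 10.2 for T3 and 67.2 for T10, so N1 lay above T3. Its call held only without N1 or T3, with log2 fold changes from 1.60 to 2.996 over the 7 fits that left out 1 sample. *MTHFD1*, the cytosolic folate enzyme, was lower at -1.21 (unadjusted p = 0.0350). It was at 33.1 FPKM for N1, 32.9 for N3, 42.4 for N8 and 91.5 for N9, while all 3 tumors lay close together at 19.0 for T1, 18.9 for T3 and 19.1 for T10. The groups did not overlap, as in 2.81% of all tested genes on the lower side, but the call held only without N1 or N3 (-1.37 to -0.88 over the same fits). Neither *ALDH1L2* nor *MTHFD1* passed with the fixed block. *SFXN1*, a mitochondrial serine carrier, was at 1.22 (unadjusted p = 0.0700) and *CBS*, which uses serine to make cystathionine, at 0.74, and neither passed. *MTR*, the methionine synthase, was at -1.33 and *DLD* at -1.24, again without passing. With 1 sample left out *MTR* ran from -1.66 to -0.76, *DLD* from -1.98 to -0.53 and *CBS* from 0.21 to 1.12. *SFXN1* ran from 0.83 to 1.57 and passed without N1 or T1. *DLD* kept its sign in 16 of the 17 alternatives run.

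The cytosolic twin of *SHMT2*, *SHMT1*, had a log2 fold change of -1.21 (unadjusted p = 0.0813 by limma) and did not pass. It was at 3.95 FPKM for N1, 22.3 for N3, 16.0 for N8 and 8.87 for N9, against 5.46 for T1, 2.18 for T3 and 5.42 for T10. The FPKM ratio of *SHMT2* to *SHMT1* was 8.87 for N1, 0.948 for N3, 1.15 for N8 and 0.663 for N9, and 7.59 for T1, 47.5 for T3 and 7.80 for T10. By FPKM *SHMT2* was the higher of the pair in all 3 tumors and in N1, whose ratio exceeded those of T1 and T10. In N8 *SHMT2* was higher by little. Protein of these genes was not measured. The log2 ratio averaged 0.67 ± 1.69 (SD, n = 4) in non-tumor tissue and 3.82 ± 1.52 (SD, n = 3) in OSA tumor. For *SLC7A5* to *SLC3A2* the log2 ratio was higher in tumor by 2.24 on average, and for *PSAT1* to *PSPH* by 2.03. Without N9 these 2 differences were 0.94 and 1.16, and without N1 the first was 3.15. These 3 ratios and *SHMT1* were picked after their values were seen, and each gave an exact permutation p of 0.171 (0.171 after adjustment over the 3), in a design that allows no p under 0.0571.

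**Figure D4:**
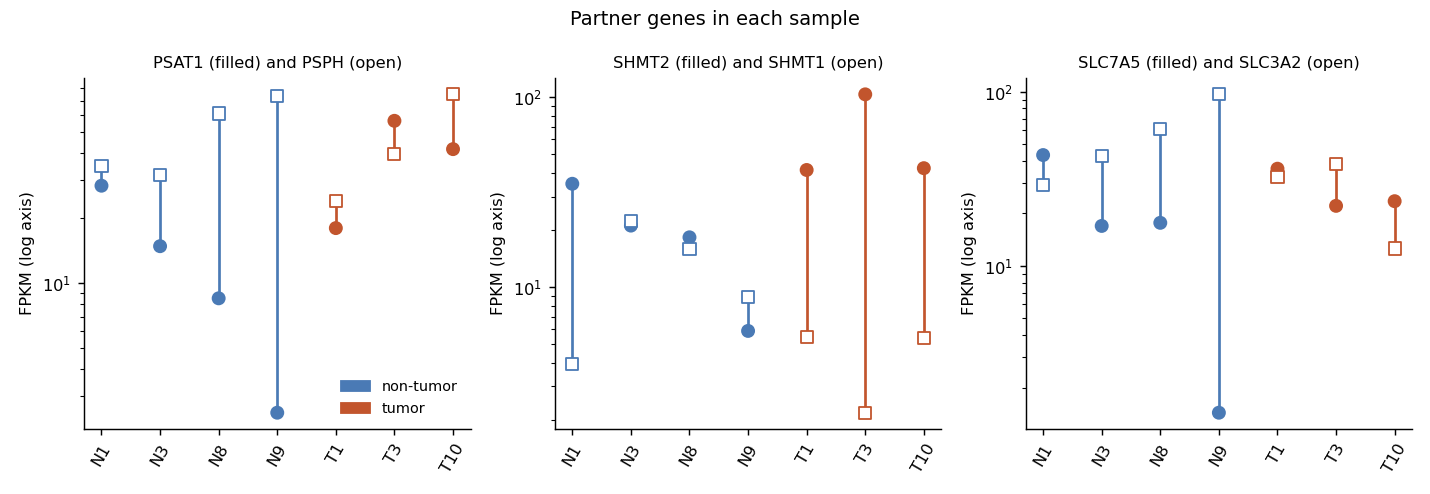
FPKM on log axes of *PSAT1* and *PSPH*, *SHMT2* and *SHMT1*, and *SLC7A5* and *SLC3A2* in each sample, the first gene filled and the second open, joined by a line. *SHMT2* exceeds *SHMT1* in N1, N8 and all 3 tumors, and the widest gap for *SLC7A5* and *SLC3A2* is in N9.

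Of 21 listed amino acid response genes, which ATF4 induces or which act with it, 20 were tested, 5 were higher and 0 lower, beside 3.28% of all tested genes called higher, and the median log2 fold change was 0.35. *CEBPG*, a partner of ATF4, was higher at 1.81 (unadjusted p = 0.00585 by limma). The non-tumor samples ranged from 6.14 to 15.6 FPKM, and tumors were at 21.8 for T1, 40.6 for T3 and 57.7 for T10. *STC2*, which encodes a secreted glycoprotein of the stanniocalcin family, was higher at 1.83 (unadjusted p = 0.00454 by limma). Non-tumor samples were between 0.427 and 2.12 FPKM and tumors between 4.64 and 6.55. Its non-tumor mean of 0.957 FPKM was under the filter of 1 FPKM, so *STC2* entered the test through the tumors. It passed without the filter too. In both genes the groups did not overlap, and both passed in all 7 fits without 1 sample. *CEBPG* did not pass with the sample number as a fixed block over N1, T1, N3 and T3, where *STC2* did.

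Groups did not overlap, with tumor higher, in 4 of the 20 tested genes of this list, the others being *DDIT3* and *ATF5*. The share over all tested genes was 3.04%. The other 3 higher genes of the list had their highest value in T3. *DDIT3*, the stress factor CHOP, was at 54.7 FPKM for T3, 7.08 for T1 and 9.78 for T10, against 2.01 to 4.41 in non-tumor samples (log2 fold change 2.02). *ATF5* was at 77.0 FPKM for T3 but at 5.56 for T1 and 4.28 for T10, with N1 at 4.22 (log2 fold change 2.08). *TRIB3*, a pseudokinase that restrains ATF4, was at 29.2 FPKM for T3, 9.31 for T1 and 4.59 for T10, with N1 at 10.05 (log2 fold change 2.15). None of these 3 passed without T3, where *DDIT3* was at 1.16. The call for *ATF5* held only without N1, T1 or T10 (0.84 to 2.78 over the 7 fits that left out 1 sample), and that for *TRIB3* only without N1 or T10 (1.48 to 2.82). *TRIB3* did not pass with the fixed block. *ATF4* itself had a log2 fold change of 0.19 and did not pass, with 207 to 838 FPKM in non-tumor samples, 1057 for T3, 250 for T1 and 280 for T10. T3 was the highest tumor in 7 of the 20 tested genes of this list and T1 in 9, and T3 in 4 of the 7 tested genes of the set (*SHMT2*, *PSAT1*, *ASNS* and *SLC3A2*), beside 32.2% of all tested genes. In *CEBPG* and *STC2* it was T10. *ATF3* (1.68) and *XPOT* (1.24), the tRNA exporter, did not pass, nor did *EIF4EBP1* (-1.12) and *CHAC1* (-0.49). *ATF3* did pass with the random block, with the fixed block and without T1, and T3 held 84.3% of its tumor sum. *XPOT* passed without T1, and *EIF4EBP1* without N3 or T1. With 1 sample left out *ATF3* ran from 0.51 to 2.70 and *XPOT* from 0.84 to 1.92. *EIF4EBP1* ran from -1.70 to -0.63 and *CHAC1* from -0.95 to 0.11.

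**Figure D5:**
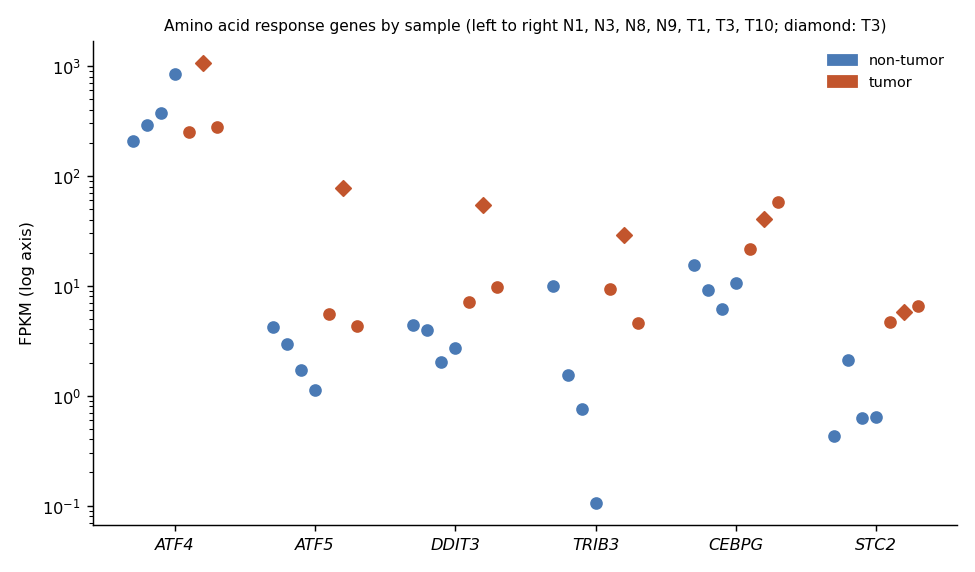
FPKM on a log axis of *ATF4* and the 5 amino acid response genes that passed, with 1 point per sample in the order N1, N3, N8, N9, T1, T3, T10 and T3 as a diamond. T3 lies far above T1 and T10 for *ATF5* (77.0 FPKM) and *DDIT3* (54.7 FPKM), and all tumors lie above all non-tumor samples for *CEBPG*, *STC2*, *DDIT3* and, by little, *ATF5*.

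Of 31 other amino acid transporters 23 were tested, and the median log2 fold change was 0.03. *SLC38A5*, a glutamine and serine transporter, was higher at 2.05 (unadjusted p = 0.0483 by limma), with 103 FPKM for T3, 67.4 for T10 and 9.35 for T1 against 2.15 to 19.6 in non-tumor samples. T1 thus lay within the non-tumor range, and the call held only without N3, N8 or T1 (1.40 to 3.06 with 1 sample left out). *SLC7A8* (LAT2), another light chain of SLC3A2, was lower at -1.53 (unadjusted p = 0.0348), at 0.402 to 1.498 FPKM in tumor and 1.57 to 9.05 in non-tumor samples, a narrow gap between T1 and N1. *SLC7A8* averaged 0.989 FPKM in tumor, so it entered the test through the non-tumor samples, and it passed without the filter too. With 1 sample left out this call held only without N1, N9 or T1 (-1.90 to -1.25). Neither transporter passed with the fixed block. *SLC1A4*, a serine and alanine exchanger related to SLC1A5, had tumor values of 9.99 to 17.0 FPKM above non-tumor values of 3.62 to 7.25, with a log2 fold change of 1.03 and an unadjusted p of 0.0504, just outside the limit. *SLC36A4* (1.21) likewise did not pass, although its groups did not overlap. *SLC7A2* (-1.77) and *SLC38A4* (-2.70) did not pass either. *SLC38A4* was at 96.6 FPKM for N9 and 16.6 for N8, 0.420 for N3, 0.0853 for T1 and 0.167 for T10, and listed at 0 for N1 and T3. With 1 sample left out *SLC7A2* ran from -2.56 to -0.91, passing without N3. *SLC38A4* ran from -3.64 to -1.43, passing without N1 or N3, and it passed with FPKM rescaled to the same sum.

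The cytosolic aminoacyl-tRNA synthetases, which load amino acids onto tRNA, gave 0 higher and 0 lower of 19 tested (20 listed), with log2 fold changes from -1.16 (*QARS*) to 0.97 (*GARS*) and a median of 0.27. *NARS*, for asparagine, was at 0.93 and *VARS* at -0.84. With 1 sample left out *NARS* ran from 0.58 to 1.51 and *VARS* from -1.66 to -0.36. Both passed without T1, as did *GARS* and *RARS*. With all samples, the count by limma at an unadjusted p under 0.05 was likewise 0. In glutamine, proline and glutathione metabolism, 10 of 17 listed genes were tested, 0 were higher and 1 was lower, with a median of -0.92. That gene was *GCLC*, the catalytic subunit of the first enzyme of glutathione synthesis, at 6.74 to 10.3 FPKM in tumor and 11.1 to 33.5 in non-tumor samples (log2 fold change -1.28, unadjusted p = 0.0377 by limma). With 1 sample left out it passed only without N1, N9 or T3 (-1.56 to -1.05), and it did not pass with the fixed block. *GLUL*, glutamine synthetase, at -1.71, and *GOT1*, at -2.73, did not pass. *GOT1* was at 448 FPKM for N8 and 771 for N9, the samples high in skeletal muscle markers, and at 9.72 to 23.6 in the other 5 samples. *PYCR1* (0.35) and *ALDH18A1* (0.74), both of proline synthesis, did not pass. With 1 sample left out *PYCR1* ran from -0.41 to 1.23, and *ALDH18A1* from 0.53 to 1.12, passing without N1. *GLUL* ran from -2.50 to -1.41, passing without N1, and *GOT1* from -3.52 to -1.83, passing without N1 or N3.

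For each tested gene, up to 2 named genes with the most similar profile are given, by Pearson correlation of log2(FPKM + 1) over the 7 samples. With 13507 genes and 7 samples, which share libraries and tissue differences, high values are common and are given as a description. *PSAT1* was nearest to *NUDT5* (0.993) and to the branched-chain aminotransferase *BCAT1* (0.986). *SLC7A5* was nearest to *TGFBI* (0.991) and *CBS* (0.991), *SHMT2* to *PBX3* (0.987) and *SEC61B* (0.976), and *SLC1A5* to *CCNF* (0.989). *PSPH* was nearest to *HIGD1A* (0.987) and *COPS4* (0.982), *SLC3A2* to *ATRIP* (0.986) and *AGPAT6* (0.985), and *ASNS* to *MTRF1L* (0.973) and *C7orf57* (0.972). No gene of the set was among the nearest profiles of another.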

How the data were processed

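RNA of 4 non-tumor and 3 OSA tumor samples was sequenced by Illumina HiSeq. The authors used Trim Galore for trimming and Tophat2 for alignment to CanFam3.1 with the Ensembl iGenomes annotation, and deposited FPKM per gene and sample from Cufflinks/Cuffdiff. Tool versions and the normalization between libraries are not given in the sources used here. All 7 columns were used as deposited. A second deposited table holds the authors' group FPKM, fold changes, test statistics, p-values and q-values, none of which were used. Only its gene intervals were read, with 1 added to each start.

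After log2 transformation with a pseudocount of 1, the 13507 genes averaging 1 FPKM or more were fitted with limma 3.58.1 in R 4.3.3 with a mean-variance trend, leaving out 11073 genes. The groups were compared without pairing. Exact permutation tests were two-sided, as the doubled smaller tail over all 35 regroupings into 4 and 3, in Python 3.11.15 with numpy 2.4.6. The fit was checked on simulated data. The study gives an approximate number of reads for its samples. No counts were analysed, so the depth of each sample was read only relative to N1. Figures were drawn with matplotlib 3.10.9.

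The genes and lists were chosen with earlier results of these data known. Genes named were the 10 of the set, those of each related list that passed with up to 2 of the largest other changes in each direction, and the 2 nearest profiles of each tested gene, of which 1 is not reported here. *SHMT1*, *ATF4* and the 3 ratios were added after their values were seen. By limma the marker lists gave 3 of 7 chondrocyte genes higher, and lower 7 of 9 erythroid, 5 of 7 granulocyte, 1 of 7 B lymphocyte, 8 of 9 skeletal muscle, 4 of 4 adipocyte and 3 of 7 endothelial genes. The cell cycle, osteoblast, osteoclast, T lymphocyte, macrophage and megakaryocyte lists gave 0. These are counts of tested genes, beside 3.28% of all tested genes called higher and 3.58% called lower. Alternatives were other pseudocounts, filters, scalings and weights, a block on the sample number, and each sample left out.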

Additional observations from a re-analysis of the deposited data

How the results depend on the processing

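The number of the 7 tested genes that passed by limma, 2 with all samples, was 1 without the filter, with FPKM rescaled to the same sum, with quantile normalization and without the trend, where *SHMT2* remained in each, and it ran from 0 to 2 with 1 sample left out, with 0 without N9 and 0 without T3, and 1 without N3, N8 or T10. With the sample number as a replicate block, it was 1 with a random block and 0 with a fixed block limited to the numbers 1 and 3, where the log2 fold change was 1.24 for *SHMT2* and 0.62 for *PSAT1*. Deviations from the group means correlated at 0.422 for N1 with T1 and 0.211 for N3 with T3. For samples with different numbers the correlations ran from -0.273 to 0.135 (0.135 for N9 with T10, 0.107 for N8 with T3). N1 and T1 also had the highest summed osteoblast markers, at 16048 and 12709 FPKM. Whether the shared numbers pair samples was not tested, and the labels do not say so. *SLC1A5* changed sign to -0.024 with the random block, -0.50 with the fixed block, -0.34 without N9 and -0.22 without T1, and ran from -0.34 to 0.73 with 1 sample left out. *PSPH* changed sign to 0.019 with the same-sum rescaling, 0.029 without N9 and 0.20 without T1, and ran from -0.60 to 0.20 with 1 sample left out. The signs of *ASNS*, *SLC7A5*, *SLC3A2* and *SLC7A11* did not change in the 17 alternatives run, but with the fixed block the log2 fold change was 0.23 for *ASNS*, 0.055 for *SLC7A5* and -0.00012 for *SLC3A2*, and *SLC7A11* was 0.86 with a pseudocount of 0.1 and ran from 0.15 to 0.60 with 1 sample left out. The signs of the 3 ratios did not change in 8 alternatives each, chosen after seeing the data. Genes of the 5 related lists that passed numbered 10, with 19 under sample weights. With the fixed block 4 passed, *ATF3* and, of the 10, *ATF5*, *DDIT3* and *STC2*. With 1 sample left out the number ran from 4 (without N8) to 19 (without N1), with 5 without N9 and 5 without T3. Of the 10, the 3 that were lower (*MTHFD1*, *SLC7A8*, *GCLC*) did not pass after the same-sum rescaling, nor did *ATF5*, *TRIB3* and *SLC38A5* without the filter. Over all genes, 926 passed, with 1857 under sample weights, 407 with the fixed block, and 362 (without N8) to 2011 (without N1) with 1 sample left out, with 449 without T10. Of the passing genes 52.2% were lower, with 34.2% (without T3) to 64.5% (without N3) when 1 sample was left out, 34.97% without T10, and 64.4% after the same-sum rescaling, which moved the median log2 fold change of all genes to 0.12. The cause was not tested. With 4 and 3 samples, the exact permutation test cannot reach 0.05.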
